A study of Danio rerio with 14 samples.

Results

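Muscle that loses mass is known to switch on a small set of genes that mark its own proteins for destruction, and 9 zebrafish genes of this set and of its upstream control were followed through the first hours of muscle regeneration. They comprise the ubiquitin ligase genes fbxo32, trim63a and trim63b, the Foxo transcription factor genes foxo1a, foxo1b, foxo3a and foxo3b, and the myostatin genes mstna and mstnb. The members were chosen by gene symbol from the comparison tables that set H9 and H18 against CON. Of the 9 symbols, 7 stood in the gene column of these tables, out of 31014 features in all. The other 2 genes were listed under older symbols, trim63a as trim63 and trim63b as zgc:56376, and were matched by Entrez identifier and by the description in the tables.

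The samples were lateral rectus (LR) muscles, the extraocular muscles that turn the eye outward, of adult zebrafish labelled with the actin:GFP genotype, a reporter driven by a muscle actin promoter that all groups shared. CON was uninjured LR muscle (4 libraries, 0 hours post injury), and H9 and H18 were LR muscles at 9 and 18 hpi (5 libraries each) after surgical removal of part of the muscle. Each library was pooled from the LR tissue of several fish, cut from frozen sections by laser microdissection, so that other cell types within the muscle could be part of the sample. Values are FPKM, which are fragments scaled by transcript length and by an upper-quartile measure of sequencing depth. They were deposited as 1 value per group, into which CuffDiff had combined the libraries. No SD over libraries can therefore be given for any value here. The authors' own p-values and q-values for these comparisons were not used, so a difference described below is given without a replicate check.

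Fbxo32 (atrogin-1) is the substrate-binding F-box subunit of a ubiquitin ligase complex, and Trim63 (MuRF1) is a RING-finger ligase that binds the sarcomere. Both are the classical markers of muscle atrophy in mammals. There, Foxo factors enter the nucleus when insulin and growth factor signaling through the kinase Akt falls, and activate both ligase genes along with autophagy genes. Myostatin is a secreted member of the TGF-beta family that restrains muscle growth through activin type II receptors and Smad2 and Smad3, and in mammals it lowers Akt activity.

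All 3 ligase genes were well above the typical feature in uninjured muscle and were lower at 18 hpi, but they did not follow the same course. The FPKM of fbxo32 (Entrez 393891, chromosome 16 of GRCz10, 25344281 to 25357601) was 35.1 (CON), 30.5 (H9) and 4.19 (H18). The level was thus 1.15-fold lower at 9 hpi and then 7.28-fold lower in H18 than in H9. The FPKM of trim63a (Entrez 415223, chromosome 6, 15525045 to 15526554) was 26.0 (CON), 6.70 (H9) and 2.65 (H18). It was 3.89-fold lower at 9 hpi already and a further 2.53-fold lower at 18 hpi. The FPKM of trim63b (Entrez 394070, chromosome 9, 24084874 to 24095336) was 38.2 (CON), 19.4 (H9) and 6.26 (H18), which is a 1.97-fold and then a 3.10-fold lower level. At 18 hpi, 11.9% of the CON level was measured for fbxo32, 10.2% for trim63a and 16.4% for trim63b. In a bulk sample, fewer muscle cells and less of an RNA per muscle cell cannot be told apart. The direction given here is that of FPKM. Relative to the median of the muscle marker genes described further on, all 3 ligases were at least 1.5-fold higher at 9 hpi. So were 12306 of the 13447 features with a mean of at least 1 FPKM. At 18 hpi, trim63b alone of the 3 ligases was at least 1.5-fold higher (log2 ratio 0.88), as were 12583 of the features. The genes fbxo32 (0.43) and trim63a (0.22) were then within 1.5-fold of the marker median. The markers themselves ranged from -5.27 to 0.70 in log2 ratio at 18 hpi against CON, so closeness to their median is not closeness to each marker.

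**Figure D1:**
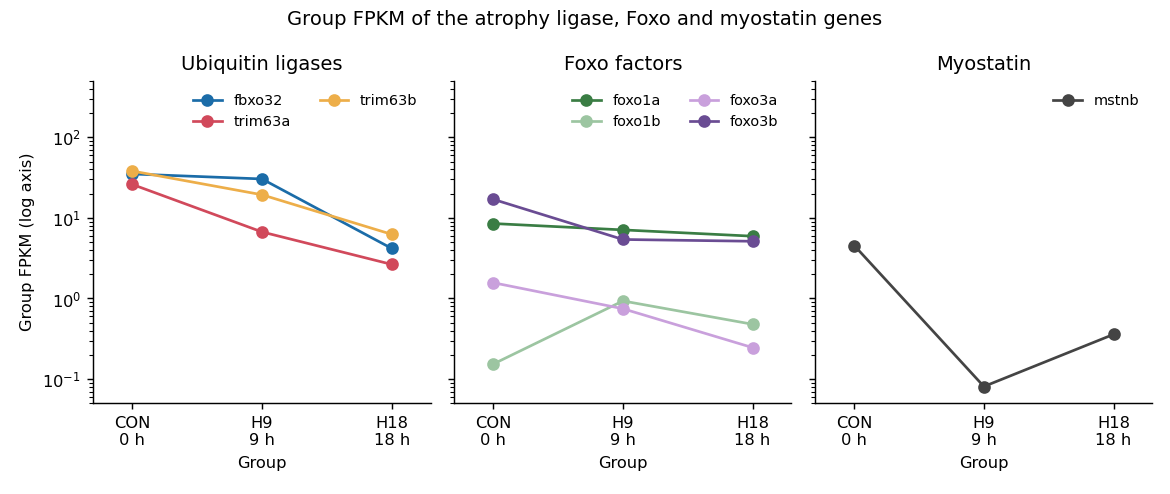
FPKM of 8 of the 9 genes in CON, H9 and H18 (1 value per group, log axis, no error bars because the libraries were combined before deposit); mstna was listed at 0 in every group and is left out. Between CON and H9, fbxo32 stayed near 30 to 35 FPKM (35.1 and 30.5) while trim63a went from 26.0 to 6.70 and mstnb from 4.54 to 0.0808.

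The Foxo genes were dominated by a single copy of each pair. The FPKM of foxo3b (Entrez 30296, chromosome 20, 32383904 to 32429857) was 17.0 (CON), 5.40 (H9) and 5.13 (H18), so that its lower level was reached by 9 hpi and the step from H9 to H18 was 1.05-fold. Its copy foxo3a (Entrez 494532, chromosome 17, 6635771 to 6653555) was much lower, with 1.57 FPKM (CON), 0.746 (H9) and 0.246 (H18). The level of foxo1a (Entrez 768121, chromosome 15, 3296419 to 3388263) was 8.52 FPKM (CON), 7.10 (H9) and 5.93 (H18). It stayed within 1.5-fold in all 3 comparisons and was the most even of the genes that were detected. For foxo1b (Entrez 567969, chromosome 10, 31865398 to 31917514), the FPKM was 0.154 (CON), 0.932 (H9) and 0.478 (H18). This was the 1 gene of the 9 whose level was above CON at both times, at under 1 FPKM in every group, and the reads behind such low values are unknown.

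Myostatin was present from a single copy. The FPKM of mstnb (Entrez 798441, chromosome 9, 41137549 to 41222672) was 4.54 (CON), 0.0808 (H9) and 0.358 (H18). At 9 hpi, 1.78% of the CON level was measured, the smallest remainder among the 8 genes detected, and at 18 hpi 7.89%. Both injured levels were under 1 FPKM, and the reads behind such low values are unknown, so these percentages are rough. The second copy, mstna (Entrez 445816, chromosome 22, 12765981 to 12770694), was listed at 0 in CON, H9 and H18, and no ratio is given for it.

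Neighboring genes limit how the positions of 2 genes can be read. The interval listed for mstnb is identical to that of pms1, a mismatch repair gene, and the interval of trim63b is identical to that of cops8, a subunit gene of the COP9 signalosome. These intervals therefore span both genes. The FPKM of pms1 was 2.73 (CON), 0.926 (H9) and 0.573 (H18), and that of cops8 was 4.87, 4.24 and 4.80. The course of trim63b was not shared by cops8, whose level stayed within 1.5-fold. The level of pms1 was lower in both injured groups, as that of mstnb was, and its part in the mstnb values was not tested. Whether reads were assigned by strand is not given in the sources used here.

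The order of the genes by level differed between the groups. In CON it was trim63b (38.2 FPKM), fbxo32 (35.1), trim63a (26.0), foxo3b (17.0), foxo1a (8.52), mstnb (4.54), foxo3a (1.57), foxo1b (0.154) and mstna (listed at 0). In H9, fbxo32 (30.5 FPKM) led, foxo1a (7.10) stood above trim63a (6.70) and foxo3b (5.40), and foxo1b (0.932) stood above foxo3a (0.746). In H18, trim63b (6.26 FPKM), foxo1a (5.93), foxo3b (5.13) and fbxo32 (4.19) lay within 1.5-fold of each other. Without a spread over libraries it cannot be said which neighbors in these orders differ. Among the 13447 features whose FPKM averaged 1 or more over the 3 groups, the level of fbxo32 was at percentile 95.1 (CON), 95.1 (H9) and 63.4 (H18). The level of foxo1a stayed at percentiles 81.3, 77.0 and 74.3, and that of mstnb was at 65.1 in CON and at 1.07 in H9.

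Summed over the 3 ligase genes, the FPKM was 99.3 (CON), 56.5 (H9) and 13.1 (H18), or 56.9% and 13.2% of CON. The share of fbxo32 in this sum was 35.3% (CON), 53.9% (H9) and 32.0% (H18). The summed FPKM of the 4 Foxo genes was 27.3 (CON), 14.2 (H9) and 11.8 (H18). Here foxo3b made up 62.4% in CON and 38.1% in H9, and foxo1a made up 31.3% and 50.1%, so that the leading Foxo gene was foxo3b in CON and foxo1a in both injured groups. Within the pairs, foxo3b held 91.6% of the foxo3 sum in CON, 87.9% in H9 and 95.4% in H18. The foxo1 pair was held by foxo1a at 98.2%, 88.4% and 92.5%. The trim63 pair was shared more evenly, with trim63b at 59.5% (CON), 74.3% (H9) and 70.3% (H18).

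**Figure D2:**
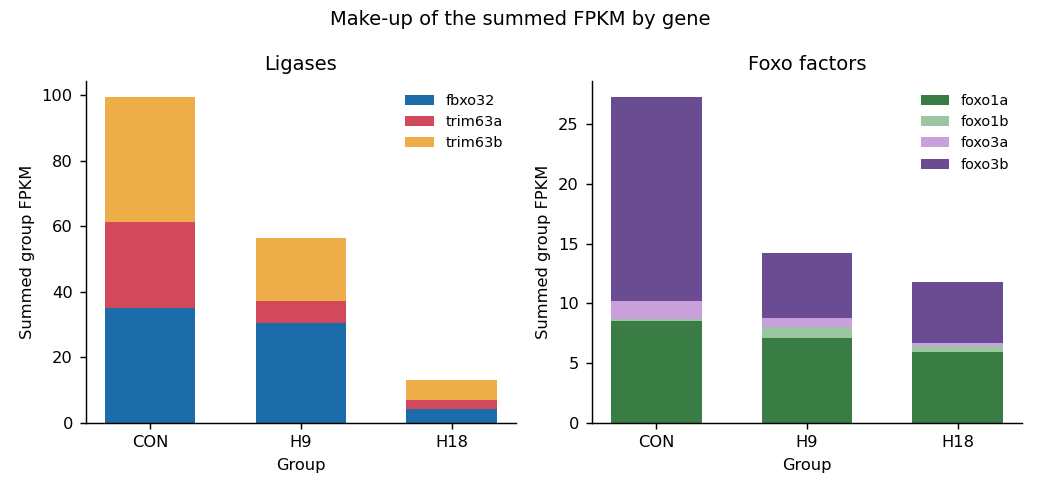
Summed FPKM of the 3 ligase genes (left) and the 4 Foxo genes (right) in each group, stacked by gene on a linear axis from 0. The ligase sum was 99.3 FPKM in CON and 56.5 in H9, with fbxo32 at 53.9% of it, and 13.1 in H18; the Foxo sum was 27.3, 14.2 and 11.8.

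To place these courses among all features, log2 ratios of the later over the earlier group were computed with 0.1 FPKM added to both values, which understates the change of low genes. A feature was counted as different when its FPKM averaged 1 or more over the groups and its ratio reached 1.5-fold. This is a limit of size and not a test. Of the 9 genes, 6 had a mean of at least 1 FPKM, and 3 (foxo1b, foxo3a and mstna) did not. The gene mstnb met this mean only through CON, so that it had to come out as lower. The same held for 5 of the other muscle ligases, 1 Foxo target and 1 myostatin pathway gene in the lists described further on.

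In CON vs. H9, trim63a (-1.94), trim63b (-0.97), foxo3b (-1.64) and mstnb (-4.68, all on the log2 scale) were at least 1.5-fold lower, and 0 of the 6 were higher. Of these, mstnb had to come out as lower, as said above. Over all 13447 features, 31.4% were lower by this limit and 34.9% higher, with a median log2 ratio of 0.09. The ratio of mstnb was at percentile 0.892 of all features, that of trim63a at 11.2 and that of foxo3b at 14.4. The ratios of fbxo32 (-0.20, percentile 40.9) and foxo1a (-0.26, percentile 39.3) were near the middle. Below the filter, foxo1b had a log2 ratio of 2.02 and foxo3a of -0.98.

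In CON vs. H18, 5 of the 6 genes were at least 1.5-fold lower, and 0 were higher. Of the 5, mstnb met the filter only through CON and had to come out as lower. The background was 34.7% lower and 32.8% higher, and the median log2 ratio was -0.01. The ratios were -3.04 for fbxo32, -3.25 for trim63a, -2.59 for trim63b, -1.71 for foxo3b and -3.34 for mstnb, at percentiles 5.74, 4.97, 8.01, 15.2 and 4.64 of all features. The ratio of foxo1a was -0.51, at percentile 36.3. Both injured groups were set against the same CON value, so the 2 comparisons share it.

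In H9 vs. H18, the 3 ligases were the lower genes among the 6 that met the filter. Their log2 ratios were -2.83 for fbxo32, -1.62 for trim63b and -1.31 for trim63a, at percentiles 1.26, 4.25 and 6.68, while 24.7% of all features were at least 1.5-fold lower. Those of foxo3b and foxo1a were -0.07 and -0.26, and below the filter foxo3a was at -1.29 and foxo1b at -0.84. The FPKM of mstnb itself was 4.44-fold higher in H18 than in H9, between values that were both under 1 FPKM. With 0.1 FPKM added, the log2 ratio of mstnb was 1.34, and 15.5% of features were higher by the limit. With 1 FPKM added in place of 0.1, its log2 ratio was 0.33 and within the limit. Of the 4519 features that were within 1.5-fold in CON vs. H9, 923 (20.4%) were at least 1.5-fold lower in H18 than in H9. Of the 4519, 24 (0.531%, fbxo32 included) were lower in H18 by as much as fbxo32 or more. This count was not planned and its limits follow the values of fbxo32 itself, so nothing is drawn from its size.

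**Figure D3:**
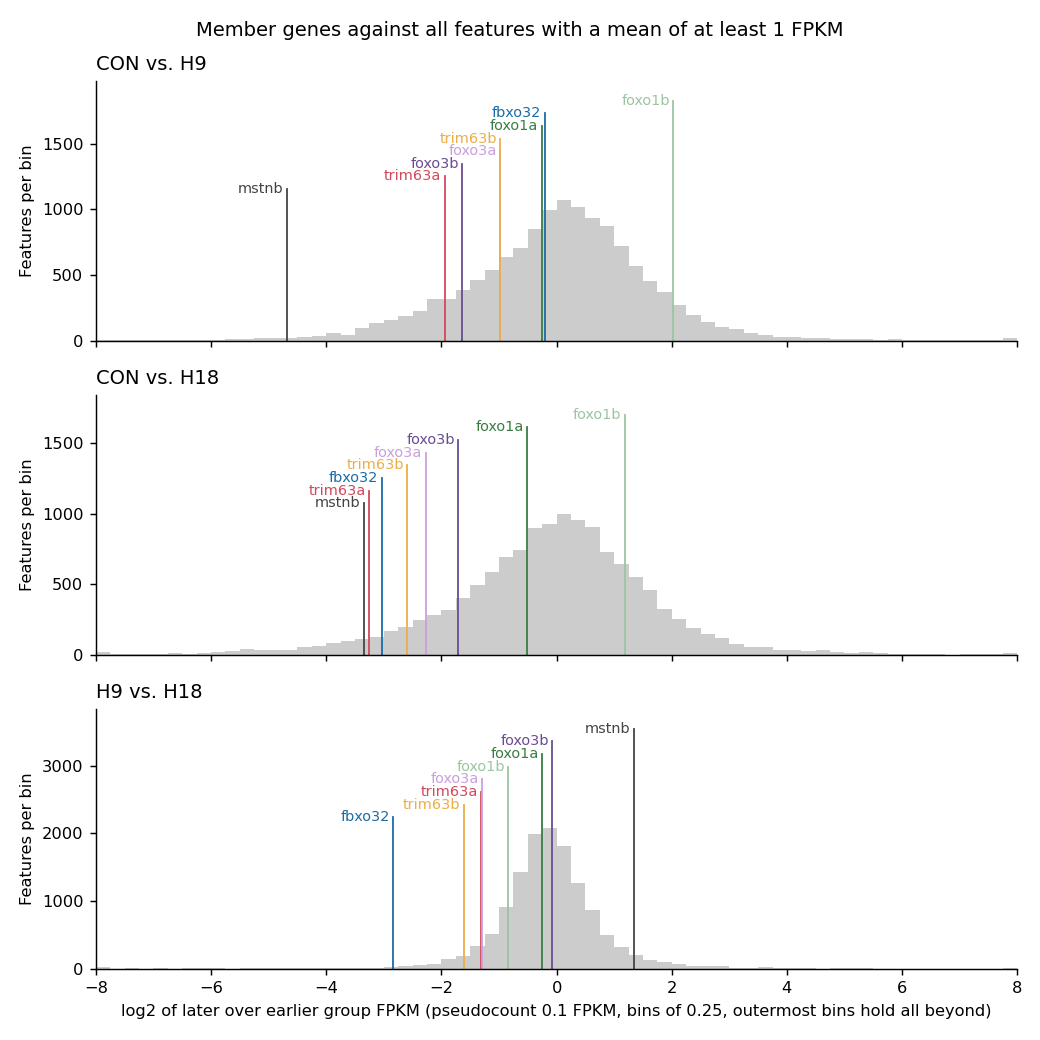
Number of features per 0.25-wide bin of log2 ratio (later over earlier group, 0.1 FPKM added) for the 13447 features that averaged 1 FPKM or more, and a line at the ratio of each of 8 genes; the height of the lines only separates the labels. In CON vs. H9, mstnb was at -4.68 and fbxo32 at -0.20, and in H9 vs. H18 fbxo32 was at -2.83.

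The sampled tissue itself changed over these hours, and the values of its marker genes stand beside those of the 9 genes. All 18 skeletal muscle markers were detected in every group with summed FPKM of 16892 (CON), 2100 (H9) and 1100 (H18) (12.4% and 6.51% of CON). At 9 hpi, 17 of the 18 were at least 1.5-fold below CON and 0 above, with a median log2 ratio of -2.82. At 18 hpi, 17 were below and 1 above, with a median of -3.47. Over all features, 31.4% were lower and 34.9% higher by this limit at 9 hpi, and 34.7% and 32.8% at 18 hpi. Of the 14 leukocyte markers, 10 were above and 2 below CON at 9 hpi, and 12 above and 2 below at 18 hpi. Their summed FPKM was 317, 382 and 379, and none was at 0 in any group. Most of the CON sum was carried by the 2 lower markers, cd74a (159, 79.7 and 47.6 FPKM) and cd74b (104 FPKM in CON and 64.9 in H9), and the other 12 markers summed to 54.7, 238 and 292 FPKM. Among these, mpx, the neutrophil myeloperoxidase gene, had 0.0635 (CON), 7.96 (H9) and 4.92 FPKM (H18), the largest ratio of the list in CON vs. H9. The gene mpx was named after its values were seen. The marker lyz had 0.723, 0.920 and 1.65 FPKM and was within 1.5-fold at 9 hpi. The summed FPKM of the 5 Schwann cell markers was 189, 61.5 and 37.5, that of the 6 erythrocyte markers 490, 603 and 339 and that of the 5 epidermal markers 221, 206 and 244. The epidermal sum was carried by krt8 (167, 175 and 227 FPKM), while 3 of the 5 markers were lower at 9 hpi and 4 at 18 hpi. Of the 5 Schwann cell markers, 3 were at least 1.5-fold lower at 9 hpi and 4 at 18 hpi, and the rest were within 1.5-fold. The sum over the 5 endothelial markers was 157% of CON in H9 and 85.3% in H18. Of these 5, 3 were higher and 0 lower at 9 hpi, and 1 higher and 1 lower at 18 hpi. Of the 6 erythrocyte markers, 1 was higher and 0 lower at 9 hpi, and 0 higher and 3 lower at 18 hpi. The sum over the 6 retinal markers was 30.6 (CON), 6.38 (H9) and 0.614 (H18), of which 0, 1 and 3 were at 0. In CON and H9 most of it was carried by rho (26.9 and 5.75 FPKM, and 0.0843 in H18), the 1 retinal marker that met the filter. The part of these shifts in the values of the 9 genes was not tested.

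Set against the median of the muscle markers, a scale chosen after the values were seen, most of the 9 genes had log2 ratios above 0 after injury. Most other features were higher on this scale too. Of the 13447 features, 12306 were at least 1.5-fold higher at 9 hpi, and 12583 were at 18 hpi. Of the 6 genes that met the filter, 5 passed this limit at 9 hpi and 3 at 18 hpi. A higher value on this scale therefore does not set the 9 genes apart from other features. On this scale the log2 ratio in CON vs. H9 was 2.61 for fbxo32, 0.87 for trim63a, 1.84 for trim63b, 2.56 for foxo1a and 1.18 for foxo3b, and it remained below 0 for mstnb alone (-1.87). At 18 hpi against CON, it was 0.43 for fbxo32, 0.22 for trim63a, 0.88 for trim63b and 0.13 for mstnb. The ligases and mstnb thus differed from the median of the muscle markers by less than 2-fold at 18 hpi, while foxo1a was at 2.95 and foxo3b at 1.76. For mstnb this rests on 0.358 FPKM in H18 and on the 0.1 FPKM added. With 0.01 FPKM added, its log2 ratio before centring was -3.63, below the marker median of -3.47 obtained with 0.1 FPKM added. In H9 vs. H18, the muscle markers had a median log2 ratio of -0.87, with 13 of 18 lower, and on their scale fbxo32 (-1.96) and trim63b (-0.74) remained lower while trim63a (-0.43) was within 1.5-fold.

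Other ligases of muscle gave mixed values. The list held 21 genes, all with a mean of at least 1 FPKM. At 9 hpi against CON, 10 were lower and 4 higher (47.6% lower, against 31.4% of all features, and 19.0% higher, against 34.9%), with a median log2 ratio of -0.34. The relatives of trim63 were among the lower genes. For trim54 (MuRF3), the FPKM was 6.29 (CON), 0.761 (H9) and 0.382 (H18). The FPKM of trim55a, a copy of MuRF2, was 9.83, 1.67 and 1.19, and that of the second copy trim55b was 7.71, 3.62 and 3.24. Both copies, like trim63a, were lower by 9 hpi, while the later step was within 1.5-fold for them. At 9 hpi, the largest ratios of the list belonged to the genes of the F-box protein Fbxo40, which in mice targets the insulin receptor substrate Irs1. The FPKM of fbxo40.1 was 6.52 (CON), 0.0709 (H9) and 0.427 (H18) (log2 ratio of -5.28 in CON vs. H9), and that of fbxo40.2 was 3.96, 0.328 and 0.130. Both Fbxo40 genes and trim54 were among the 5 genes of the list that met the filter only through CON and therefore had to come out as lower. These 5 are counted among the lower genes at both times against CON. The filter itself thus raised the shares of lower genes at 9 and 18 hpi, and nothing is drawn from their excess over all features. At 18 hpi against CON, 9 of the list were lower (42.9%, against 34.7% of all features) and 3 higher (14.3%, against 32.8%). Between H9 and H18, 6 were lower (28.6%, against 24.7%) and 3 higher (14.3%, against 15.5%).

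Foxo genes outside the 9 and the enzymes that act on Foxo proteins numbered 21, of which 18 had a mean of at least 1 FPKM. In CON vs. H9, 3 were lower and 8 higher (16.7% lower, against 31.4% of all features, and 44.4% higher, against 34.9%), with a median log2 ratio of 0.49. In CON vs. H18, 4 were lower and 4 higher (22.2% each, against 34.7% lower and 32.8% higher), with a median of 0.10. In H9 vs. H18, 6 were lower and 1 higher (33.3% and 5.56%, against 24.7% and 15.5%). The FPKM of foxo4, a further Foxo factor, was 5.45 (CON), 2.49 (H9) and 1.47 (H18), and foxo6b stayed under 1 FPKM (0.209, 0.0228 and 0.228). The Akt kinases, which hold Foxo proteins outside the nucleus, did not move together. For akt1, the FPKM was 1.65, 2.48 and 5.69. With 0.1 FPKM added, its log2 ratio to CON was 0.56 at 9 hpi, just under the 1.5-fold limit, and 1.73 at 18 hpi. For akt2, the FPKM was 4.06, 7.10 and 5.85, and for akt2l, a further Akt2-like gene, it was 21.3, 1.26 and 1.92. The FPKM of akt2l in CON was above those of akt1 and akt2, and in H18 it was below both. The related kinase gene sgk1 had 7.21 FPKM (CON), 12.7 (H9) and 8.10 (H18). The level of prkaa2, a catalytic subunit of AMP-activated kinase that phosphorylates Foxo3 in mammals, was 29.6, 1.89 and 0.993 FPKM.

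Genes known as Foxo targets in mammals, without the 9, were mostly lower after injury. Of the 34 with a mean of at least 1 FPKM (35 listed), 22 were lower and 3 higher in CON vs. H9. This is 64.7% lower, against 31.4% of all features, and 8.82% higher, against 34.9%. The median log2 ratio was -0.82. In CON vs. H18, 25 were lower and 1 higher (73.5% and 2.94%, against 34.7% and 32.8%), with a median of -1.33. The lower genes at both times include klf15 (4.07, 0.488 and 0.254 FPKM), which met the filter only through CON and had to come out as lower. In H9 vs. H18, 13 were lower and 0 higher (38.2% and 0%, against 24.7% and 15.5%), with a median of -0.35. Against CON, the medians at both times lay between those of all features and those of the muscle markers, so that on the scale of the muscle markers they are above 0. At 9 hpi the largest ratios were those of sesn1 and pik3ip1. The FPKM of sesn1, a stress-induced inhibitor of mTORC1, was 33.4 (CON), 3.96 (H9) and 4.38 (H18). That of pik3ip1, an inhibitor of phosphatidylinositol 3-kinase, was 12.0, 1.37 and 0.532. By contrast, txnipa, an inhibitor of thioredoxin, stayed at 110, 107 and 94.2 FPKM. The level of gadd45aa, a growth arrest gene, was higher than CON at both times (1.36, 3.06 and 2.82). Its copy gadd45ab went the other way, with 5.12, 4.06 and 1.86 FPKM, and was at least 1.5-fold lower at 18 hpi. The genes txnipa, gadd45aa and gadd45ab were chosen after their values were seen.

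The myostatin pathway list, with ligands, processing enzymes, receptors, Smads and extracellular antagonists, held 32 genes, of which 21 had a mean of at least 1 FPKM. At 9 hpi against CON, 7 were lower and 5 higher, with a median log2 ratio of -0.27. These are 33.3% lower and 23.8% higher, against 31.4% and 34.9% of all features. At 18 hpi against CON, 12 were lower and 5 higher (57.1% and 23.8%, against 34.7% and 32.8%), with a median of -0.75. Between H9 and H18, 7 were lower and 2 higher (33.3% and 9.52%, against 24.7% and 15.5%). The ligand closest to myostatin, gdf11, was low throughout, with 0.512 FPKM (CON), 0.0449 (H9) and 0.268 (H18). Among the antagonists, fsta, a follistatin gene whose product binds activins and myostatin, had 7.77 FPKM (CON), 0.907 (H9) and 0.435 (H18), and met the filter only through CON. The second follistatin gene, fstb, had 2.98, 1.14 and 2.70, so that its H18 level was close to CON. The ligand mstnb and the antagonist fsta both had a lower FPKM at 9 hpi and at 18 hpi. Both met the filter only through CON and had to come out as lower, so nothing is drawn from their shared direction. The activin type II receptor genes acvr2ba and acvr2bb stayed near or under 1 FPKM (1.06, 1.1 and 0.348 for acvr2ba, and 0.392, 0.534 and 0.854 for acvr2bb). Other type II receptor genes of the list, named after their values were seen, were acvr2aa and acvr2ab. The FPKM of acvr2aa was 7.86 (CON), 4.08 (H9) and 3.44 (H18), lower than CON at both times, and that of acvr2ab was 1.35, 1.21 and 0.656. The muscle caveolin gene cav3 had 31.4 FPKM (CON), 5.88 (H9) and 5.88 (H18).

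**Figure D4:**
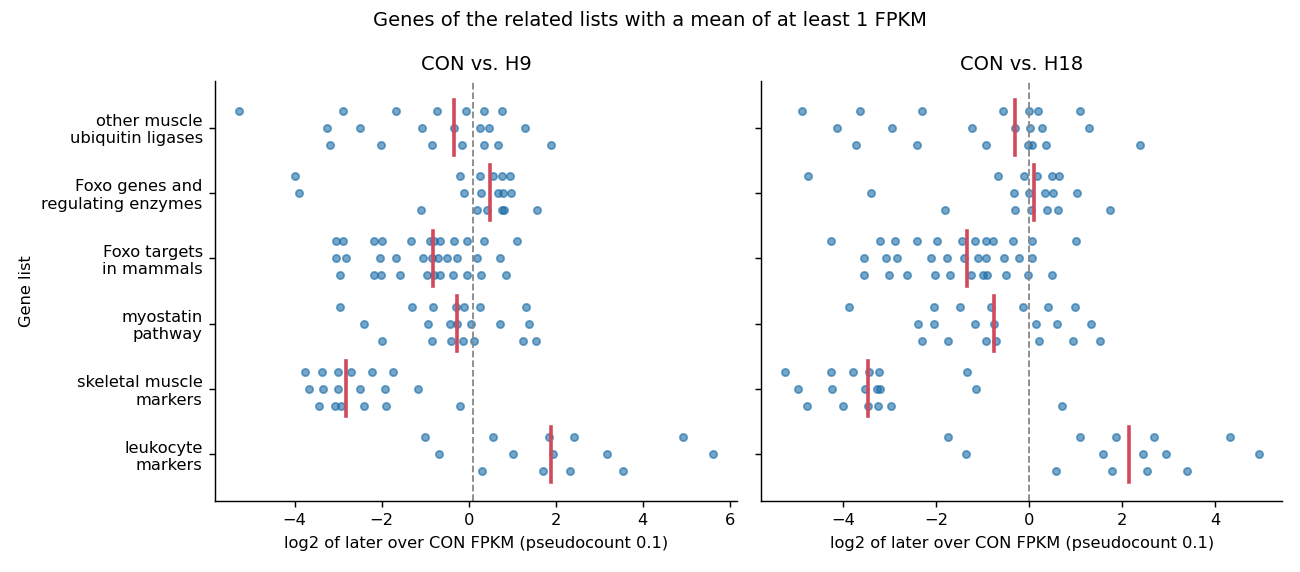
Log2 ratio of H9 (left) and H18 (right) over CON for the genes of each list that met the 1 FPKM filter; points are genes, the vertical spread only separates them, red bars are list medians and the dashed line is the median of all 13447 features. In CON vs. H9 the medians were -0.34 for other muscle ligases, 0.49 for Foxo genes and regulating enzymes, -0.82 for Foxo targets, -0.27 for the myostatin pathway and -2.82 for the muscle markers.

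For the gene with the highest mean FPKM of each class, the 3 features of most similar course were found among the other 13446, by the distance between their pairs of log2 ratios (H9 and H18, each over CON), a likeness over 3 group values. For fbxo32 these were cxcl32b.1, a chemokine gene with 2.83 FPKM (CON), 2.24 (H9) and 0.261 (H18), at a distance of 0.120 on the log2 scale, followed by LOC103909860 (0.187) and LOC100536252, a shaker-related potassium channel gene (0.190). For foxo3b they were lin52 at a distance of 0.0128, sdha, the flavoprotein subunit of succinate dehydrogenase (0.0169), and fat1a (0.0378). The FPKM of sdha was 88.7, 28.1 and 27.0. For mstnb they were LOC103911029 (0.148), LOC100148594 (0.149) and LOC100537088 (0.184). The closest features to fbxo32 and to mstnb were farther away than those to foxo3b. Such a distance also depends on how many features lie at similar ratios, and for mstnb on values under 1 FPKM in H9 and H18. Nothing is drawn from it.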

How the data were processed

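Ribosome-depleted total RNA of LR muscle was sequenced from stranded libraries. According to the methods and the submitters' processing notes, reads were mapped to GRCz10 with TopHat2 2.0.13 and Bowtie2 2.2.1, and the authors computed FPKM with Cuffdiff 2.2.1, using multi-read correction and upper-quartile normalization. The deposited FPKM are 1 value per group and feature, in 3 comparison tables that also hold the authors' fold changes, p-values, q-values and status, none of which was used. FPKM with upper-quartile scaling are relative, so a shift in many transcripts can move the values of others. The 3 most abundant features held 77.7% of summed FPKM (CON), 76.4% (H9) and 82.9% (H18). Their effect under this scaling was not tested.

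The count table has 14 columns named by run numbers that match no sample label. It was not used, so the planned tests between libraries were not run and the depth of each library is unknown.

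Log2 ratios were computed in Python 3.11.15 with pandas 2.3.3 and numpy 2.4.6, with a pseudocount of 0.1 FPKM. A feature was counted as different at a mean of at least 1 FPKM over the 3 groups and a ratio of at least 1.5-fold. The computation was tested on simulated data with planted changes and CON values of at least 1 FPKM. That test does not cover genes that are lower in CON or a spread over libraries. Listed starts were read as counted from 0 and are given from 1. Gene symbols absent from the tables were matched by Entrez identifier (24851 of 31014 features matched the RefSeq table of GRCz12tu). That RefSeq table also gave the chromosome numbers, and the gene lengths used to check how starts are counted. The genes named by rule beside the 9 were the 2 of each list with the largest ratio in CON vs. H9, 13 partners fixed by name and the features of most similar course. Other genes named from the lists were chosen after their values were seen. The 9 genes and the lists were chosen with earlier results of these data known. Alternatives were another pseudocount, filter, fold limit and centring.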

Additional observations from a re-analysis of the deposited data

How the results depend on the processing

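All values rest on 1 combined FPKM per group, so the alternatives show the effect of settings and not of libraries. Not run, since the count columns match no sample label, were the count models (edgeR and DESeq2), fits of 2 groups only, a count filter and leaving out each replicate. No paired analysis was possible because the FPKM are combined per group and carry no replicate number.

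Of 159 values of single genes under alternatives, 133 kept their side of the 1.5-fold limit, 10 kept direction only and 16 changed direction with a value past the limit before or after. Of the 133, 1 changed sign within the limit, foxo3b in H9 vs. H18 (-0.07, and 0.074 when centred on the median of all features). The 16 arose from centring on the muscle markers, chosen after seeing the data, which shifts the zero point by -2.82, -3.47 and -0.87. In CON vs. H9 the log2 ratios became 2.61 for fbxo32, 0.87 for trim63a, 1.84 for trim63b, 2.56 for foxo1a, 1.84 for foxo3a and 1.18 for foxo3b. In CON vs. H18 they became 0.43, 0.22, 0.88, 2.95, 1.2 and 1.76 for the same genes and 0.13 for mstnb. In H9 vs. H18 they became 0.62 for foxo1a, 0.039 for foxo1b and 0.80 for foxo3b. The values of mstnb and foxo1b rest on levels under 1 FPKM in H9 and H18, where the 0.1 FPKM added changes the ratio. With this centring, 12306 features were higher and 338 lower at 9 hpi against CON, 12583 and 363 at 18 hpi against CON, and 7945 and 705 for H9 vs. H18. Of the 9 genes, 5, 3 and 3 were then higher in the 3 comparisons, and 1 (CON vs. H9) and 0 (CON vs. H18) lower.

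Without the filter on low values, these counts were 9581 and 7816, 8233 and 9013, and 4929 and 8215, in the same order. Of the 9 genes, 1 was then above CON at 9 hpi and 1 at 18 hpi, and 5 were lower in H18 than in H9. With a mean of at least 5 FPKM, the feature counts were 1790 and 1414, 1759 and 1537, and 671 and 1052, and 0 of the 9 were higher in H9 vs. H18. With a pseudocount of 1 FPKM, 2175 features were lower and 0 of the 9 higher in H9 vs. H18. With a 2-fold limit, 1072 features were higher and 1519 lower for H9 vs. H18. Filters change the number of features tested, the 2-fold limit the size required and the pseudocount the ratios themselves.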

Other observations

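Other genes of the lists, chosen after their values were seen, followed courses unlike those of the trim63 genes. Late lowering like that of fbxo32 was seen for smad7, an inhibitory Smad, with 7.30 FPKM (CON), 5.91 (H9) and 1.40 (H18), and for fstl3, a follistatin-like antagonist, with 9.06, 9.36 and 2.12. The proprotein convertase gene furina was higher than CON at both times (4.67, 11.7 and 9.35 FPKM), as was bmp1a, whose product in mammals belongs to the proteases that release latent myostatin (3.69, 9.88 and 9.38). The ligase adaptor gene traf6 had 0.710, 2.90 and 4.15 FPKM. No replicate error can be attached to these values.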
